A study of Mus musculus with 6 samples.

Results

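Apoe, Clu, Cst3, Sparc, Sparcl1 and Agt code for abundant proteins that astrocytes release into the fluid around them. They were chosen by symbol (APOE, CLU, CST3, SPARC, SPARCL1 and AGT in the tables) from the authors' deposited tables of heavy-complex RNA, and 6 of 6 were found, all among the 13278 genes listed for both extractions (shared genes) of 13970 genes listed in all. None stood among the 75 genes listed for the standard extraction alone or the 617 for the optimized one. The RNA came from untreated primary astrocytes (glial cells that support neurons), grown from thawed stocks of newborn C57BL/6JOlaHsd mice (males and females pooled). Each extraction was sequenced in 3 libraries (batches A, B and C), 6 in all. For the standard extraction, cells were scraped, pelleted and frozen, then lysed in 1% Triton X-100 and 1% sodium deoxycholate with 50 mM KCl. For the optimized extraction, cells were lysed on the plate in 2% DDM (dodecyl maltoside, a mild detergent) with 200 mM KCl. Both buffers held 10 mM MgCl2 and 100 μg/ml cycloheximide, which stalls ribosomes, and 12 μg of lysate RNA was spun through a 1 M sucrose cushion, so that ribosomes and other heavy particles were collected in the pellet. The extractions therefore differed in harvest (scraping and pelleting against lysis on the plate), freezing, detergent and salt at once, and these cannot be told apart. Astrocyte markers were present, with 12 of 12 intracellular and 12 of 13 membrane markers among the shared genes. Most listed genes were shared (13278 of 13970), and markers of other cell types were found there too. These were 8 of 9 fibroblast and meningeal, 7 of 10 vessel, 7 of 11 oligodendrocyte lineage, 6 of 11 neuron and 2 of 13 microglia markers. Presence among the shared genes therefore does not give the cell composition.

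A secreted protein begins with a short hydrophobic signal peptide. As it leaves the ribosome, the signal recognition particle binds it and brings the ribosome to the translocon of the endoplasmic reticulum (ER), so that the mRNA becomes tied to the ER membrane while it is translated. In the brain, astrocytes are the main source of ApoE and a major source of clusterin, cystatin C, SPARC-like 1 and angiotensinogen.

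The start of each coding sequence is shown because it encodes the part of the protein that directs it to the ER. The lines give the first 75 coding bases (25 codons) of the representative GENCODE M21 transcript of each gene, 5′ to 3′, with leucine codons (CTN, TTA and TTG, read in frame on the coding strand) in capitals. Leucine is the commonest residue of the hydrophobic core of signal peptides.
Apoe: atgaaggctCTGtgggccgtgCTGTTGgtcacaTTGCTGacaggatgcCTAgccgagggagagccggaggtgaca
Clu: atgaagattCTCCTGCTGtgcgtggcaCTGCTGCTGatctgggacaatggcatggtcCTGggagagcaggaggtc
Cst3: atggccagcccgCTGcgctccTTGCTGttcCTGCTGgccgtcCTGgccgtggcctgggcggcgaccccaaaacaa
Sparc: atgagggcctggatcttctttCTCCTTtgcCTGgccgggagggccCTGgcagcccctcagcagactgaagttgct
Sparcl1: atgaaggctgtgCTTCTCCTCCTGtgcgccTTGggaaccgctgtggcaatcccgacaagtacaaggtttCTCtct
Agt: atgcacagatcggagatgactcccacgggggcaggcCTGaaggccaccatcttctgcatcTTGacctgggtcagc

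Runs of leucine codons stand near the start of 5 of the 6 sequences. Clu held 7 leucine codons among the 25, Apoe, Cst3 and Sparcl1 held 6 each and Sparc held 4. The search covered 12567 shared protein-coding genes with a complete coding sequence, of which 5.90% held at least 7, 10.5% at least 6 and 29.2% at least 4. Agt held 2, a number that 67.9% of these genes reached. Its annotated coding sequence has a second in-frame ATG at codon 6, and from there 3 of 25 codons were leucine codons. Clu has a later in-frame ATG too, at codon 18, and from there 3 of 25 codons were leucine codons as well, a number that 47.0% of these genes reached from their annotated start. The count of leucine codons is a description of the bases and not a prediction of a signal peptide.

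All 6 genes had a log2 ratio of optimized over standard extraction below the median of the shared genes, and Agt lay far below the others. The authors deposited 1 log2 ratio per gene, without an error or a value per library, so the spread between batches is unknown, the depth is unknown and no gene was tested. The median log2 ratio of the 13278 shared genes was 1.09 (2.13-fold), with quartiles of 0.90 and 1.27. The sources used here do not give how the libraries were scaled, so members are set against that median. By construction 50.0% of shared genes lie below it, and 51.0% of the 12620 shared protein-coding genes did. The median over the 6 members was 0.87 (1.82-fold), with a range from -0.12 to 1.01. The members were chosen with earlier results of these data known, so their count is a description.

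**Figure D1:**
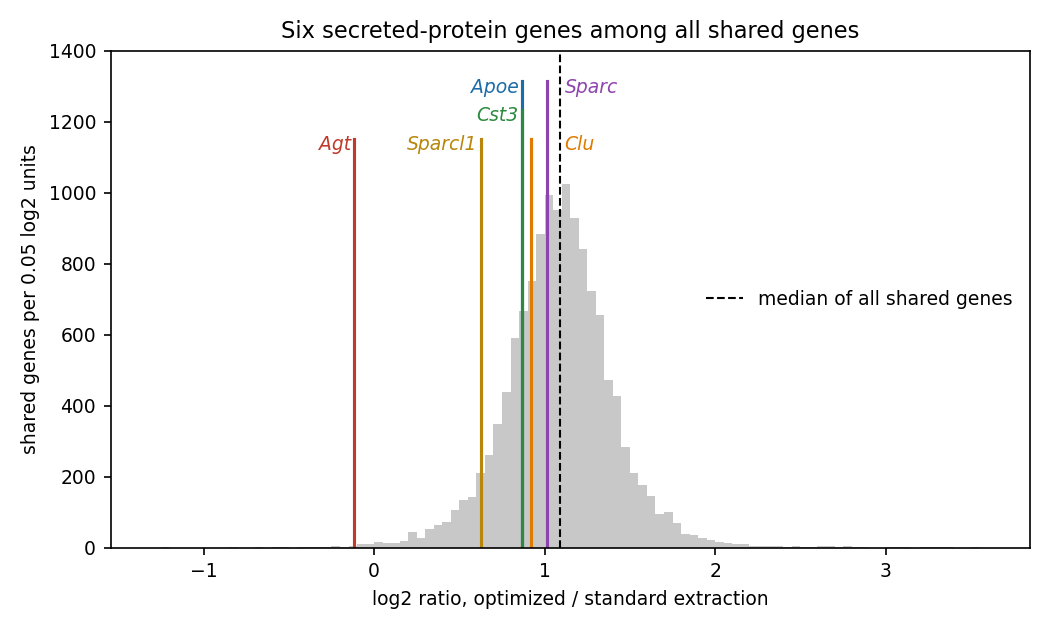
Number of shared genes in bins of 0.05 log2 units of the ratio of optimized over standard extraction, with a coloured line for each of the 6 secreted-protein genes and a dashed line for the median of all shared genes (1.09). Apoe (0.87), Cst3 (0.87), Clu (0.92) and Sparc (1.01) lie in the left shoulder, Sparcl1 (0.63) lower and Agt (-0.12) in the far left tail.

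Apoe and Clu code for the lipid-carrying proteins of brain lipoproteins. Apoe (mm10 chr7:19696109-19699188, minus strand), whose product carries cholesterol from astrocytes to neurons, was listed at a log2 ratio of 0.87 in the authors' deposited table, 1.83-fold higher with the optimized extraction. Of the shared genes 21.5% had a lower ratio. Clu (mm10 chr14:65968483-65981547, plus strand), whose product clusterin is an extracellular chaperone that also rides on lipoproteins, was listed at 0.92 (1.89-fold) in the authors' deposited table, with 27.0% of shared genes lower. Clu lay above Apoe by 0.052 on the log2 scale, a 1.04-fold difference whose error is unknown. Both genes therefore stood near the lower quartile, Apoe just below it and Clu just above. Microglia can also express Apoe. Of 13 microglia markers 2 were shared, Tmem119 at 0.85 and the lysosomal gene Cd68 at 0.75 in the authors' deposited table, and 11 were in none of the tables, among them Aif1, Csf1r, Cx3cr1 and the C1q genes. The part of microglia in the Apoe value was not tested, and in such bulk pellets fewer cells of a type and less RNA per cell cannot be told apart.

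Of the lipoprotein receptors, transporters and plasma factors that load, remodel or take up such particles, 17 of 22 were shared and 17 of these 17 lay below the median of the shared genes, with a list median of 0.76. Trem2, Abcg1, Apoc1, Apob and Apoa1 were in none of the 3 tables. The highest was Scarb1, the scavenger receptor for high-density lipoprotein, at 1.05, and Lrp1b, of the LDL receptor family, was lowest at 0.34 in the authors' deposited table. Apoe and Clu thus had higher ratios than the middle of the genes that handle their particles. Of the 17 genes 3 were at least 2-fold higher, beside 63.0% of all shared genes.

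Cst3 (mm10 chr2:148871722-148875692, minus strand) codes for cystatin C, a small secreted inhibitor of cysteine proteases. It was listed at 0.87 (1.82-fold) in the authors' deposited table, and 21.3% of shared genes had a lower ratio. Apoe and Cst3 differed by 0.0025 on the log2 scale, although the coding sequence of Apoe is 2.21 times as long. Of 14 other cystatins and cysteine proteases of the cathepsin and legumain families 11 were shared, with a list median of 0.82, and 9 lay below the median of the shared genes. The pair above it were the other shared cystatins, Cst6 at 1.14 and Cstb at 1.12 in the authors' deposited table (Cstb was chosen after its value was seen). Cst6 is secreted and Cstb, cystatin B, is a cytosolic protein. The lowest was Ctsk, a collagen-degrading lysosomal protease, at 0.46 in the authors' deposited table. Cst3, at 0.866, lay below these 2 cystatins and level with the highest of the 9 proteases, Ctsz at 0.864 in the authors' deposited table. Ctsz was chosen after its value was seen, and the error of so small a difference is unknown.

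Sparc and Sparcl1 code for related calcium-binding glycoproteins that modulate the matrix. In rodent studies, SPARC-like 1 (hevin) from astrocytes promotes synapse formation and SPARC opposes it. Sparc (mm10 chr11:55394500-55423183, minus strand) had the highest ratio of the 6, 1.01 (2.02-fold) in the authors' deposited table, with 38.8% of shared genes lower. Sparcl1 (mm10 chr5:104079111-104113733, minus strand) was listed at 0.63 (1.54-fold) in the authors' deposited table, and 6.50% of shared genes had a lower ratio. The pair thus differed by 0.39 on the log2 scale, a 1.31-fold difference with Sparc the higher, and spanned the whole range of the 5 members other than Agt. Sparc was the 1 member at least 2-fold higher, where 63.0% of all shared genes were. At least 1.5-fold higher were 5 of the 6 members, all but Agt, beside 94.6% of all shared genes, and at least 4-fold higher 0 of 6, beside 0.889%. Fibroblasts and vessel cells also express Sparc. Of 9 fibroblast and meningeal markers 8 were shared, all 8 below the median of the shared genes, with a median of 0.66. Of 10 vessel markers 7 were shared, all 7 below, with a median of 0.80. The part of these cells in the Sparc value was not tested. An antisense gene, Gm26703, overlaps 4517 bases of the annotated span of Sparcl1 on the opposite strand. It was in none of the 3 tables, and the sources used here do not say whether counting used strand.

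The other proteins with a SPARC-type calcium-binding domain ran from just above Sparc to well below Sparcl1. All 6 of 6 were shared and all 6 lay below the median of the shared genes, with a list median of 0.57. The glycoprotein gene Fstl1 was highest at 1.04 in the authors' deposited table, next to Sparc. Smoc1 was listed at 0.80, Spock3 at 0.60 and Spock2 at 0.55 in the authors' deposited table, around Sparcl1. Smoc2 at 0.22 and the proteoglycan gene Spock1 at -0.24 were the lowest in the authors' deposited table. Of 10 genes for collagens, vitronectin and growth factors that SPARC binds, 10 were shared and 7 lay below the median of the shared genes, with a list median of 0.74. The 7 were matrix and adhesive proteins, with vitronectin, Vtn, lowest at 0.32 in the authors' deposited table. The 3 above were the growth factors Pdgfb (1.40), Pdgfa (1.36) and Vegfa (1.33) in the authors' deposited table, of which Pdgfa and Vegfa were chosen after their values were seen.

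Agt (mm10 chr8:124556534-124569706, minus strand) codes for angiotensinogen, the secreted precursor that renin and angiotensin-converting enzyme cut into the peptide hormone angiotensin II. It was the 1 member listed below 0, at -0.12 in the authors' deposited table, a 0.922-fold value in the optimized extraction. Among the 13278 shared genes 25 had a lower ratio, and 0.392% of shared genes were listed below 0. Agt lay 1.20 below the median of the shared genes on the log2 scale (2.30-fold) and 0.74 below Sparcl1 (1.67-fold), the next member. It was also the 1 member absent from the authors' extracellular matrix table, which held the other 5. In that table of 280 genes, 227 had a lower ratio than Sparc, 196 than Clu, 182 than Apoe, 179 than Cst3 and 77 than Sparcl1, and 1, Spock1, had a lower ratio than Agt. The authors chose that table on these samples, so it is no independent evidence of a direction. It had a median of 0.77, so 4 of the members stood in its upper part and Sparcl1 in its lower part.

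The other genes of the angiotensin system lay closer to the median of the shared genes than Agt did. Of 15 genes 7 were shared, all 7 below that median, with a list median of 0.87. The receptor gene Agtr1a (1.07) and the receptor-associated protein gene Agtrap (1.02) were highest in the authors' deposited table. The peptidase genes Lnpep, Ace and Mme were listed at 0.88, 0.87 and 0.85 and the renin receptor gene Atp6ap2 at 0.73 in the authors' deposited table. Anpep, an aminopeptidase gene, was lowest at 0.09 in the authors' deposited table. Ren1, the renin gene, was in none of the 3 tables. Angiotensinogen is a serpin by structure. Of 14 other serpins 13 were shared, 13 of these lay below the median of the shared genes, and their median was 0.81. The lowest was Serpind1, the gene of the thrombin inhibitor heparin cofactor II, at -0.39 in the authors' deposited table, below Agt. The highest was Serpinb6a, of the intracellular serpin clade, at 1.04 in the authors' deposited table.

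Coding length did not strictly order the members, although the longest, Sparcl1 and Agt, had the lowest ratios. Cst3 has the shortest coding sequence (423 bases with the stop codon), followed by Sparc (909), Apoe (936), Clu (1347), Agt (1449) and Sparcl1 (1953). The shortest and the longest were listed at 0.87 and 0.63 in the authors' deposited table, but Sparc and Apoe, whose lengths differ by a factor of 1.03, were listed 0.14 apart. Clu and Agt, at a length ratio of 0.930, were listed 1.04 apart in the authors' deposited table. Over the 12594 shared protein-coding genes with a coding length, the shortest of 10 length classes (78 to 552 bases) had a median log2 ratio of 1.29, the next (555 to 774 bases) 1.14 and the third (777 to 993 bases) 1.09. The 7 classes of longer genes had medians from 1.02 to 1.07. Cst3 is the 1 member in the shortest class, and it lay furthest below its class apart from Agt and Sparcl1.

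**Figure D2:**
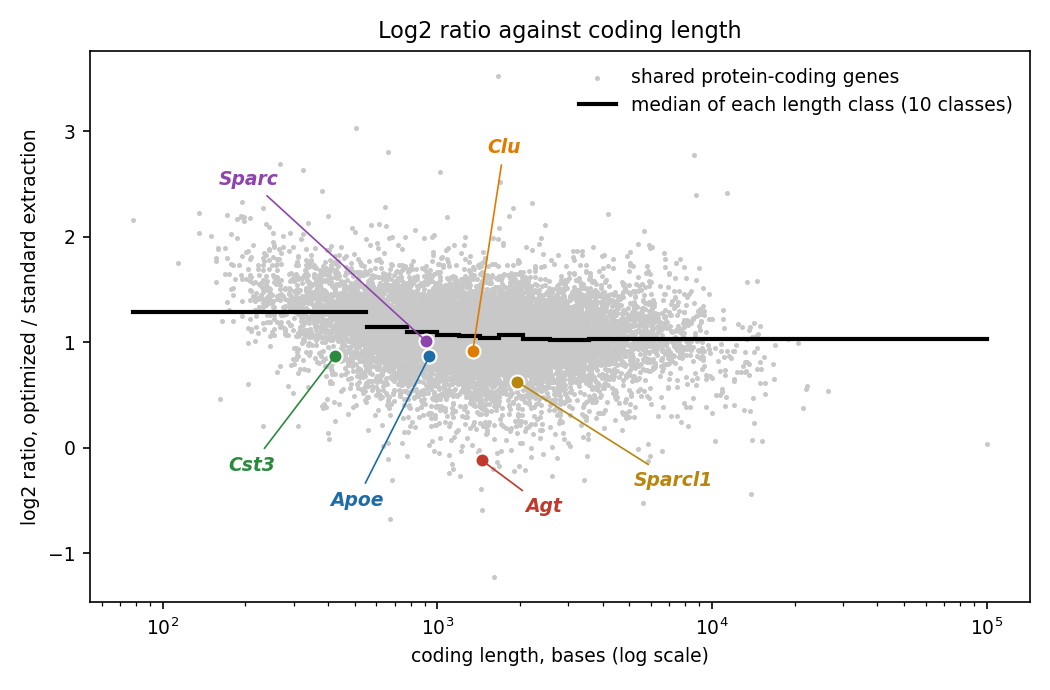
Log2 ratio of optimized over standard extraction against coding length in bases (log axis) for the shared protein-coding genes (grey), with black bars for the medians of 10 length classes and the 6 secreted-protein genes in colour. The 6 lie under the bars at their lengths, with Sparc closest and Agt furthest.

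Set beside genes of like coding length, 6 of 6 members lay below the median of those genes. Sparc lay 0.081 below the median of 1046 genes within 10% of its coding length, which was 1.09, and 36.6% of them had a lower ratio. Clu lay 0.13 below the median of 1483 such genes, 29.0% of them lower. Apoe lay 0.22 below the median of 1130 such genes, 21.6% of them lower. Sparc and Clu lay between the quartiles of genes of their length, and Apoe lay under the lower quartile of its own, 0.92.

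The other members lay further under the lower quartile of genes of their length. Cst3 lay 0.39 below the median of 361 genes within 10% of its coding length, which was 1.26, and 10.5% of them had a lower ratio. Against all shared genes Cst3 and Apoe had held nearly the same place. Among genes within 10% of their whole transcript length they lay closer again. There 20.2% of 252 genes were lower than Cst3 and 24.8% of 670 genes lower than Apoe. By coding length, Sparcl1 lay 0.44 below the median of its 1247 genes, 6.17% of them lower. Agt lay 1.15 below the median of its 1522 genes, and 3 of them (0.197%) had a lower ratio.

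**Figure D3:**
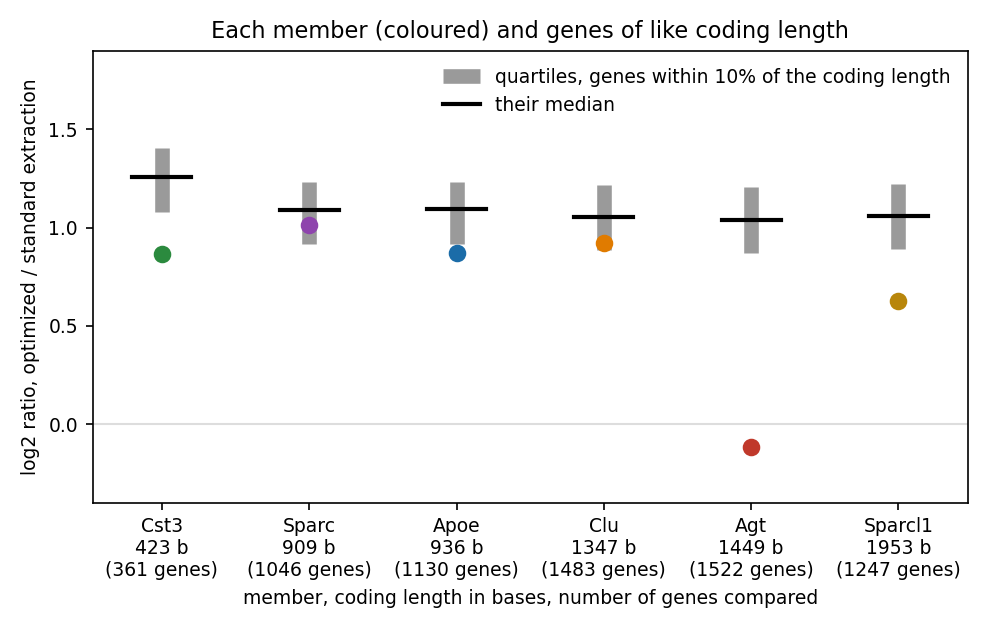
Log2 ratio of optimized over standard extraction of each member (coloured point) beside the quartiles (grey bar) and the median (black line) of the shared protein-coding genes whose coding length is within 10% of its own, with members ordered by length. Sparc and Clu lie within the grey bar, Apoe just under it, Cst3 and Sparcl1 further under it and Agt below 0.

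Other transcript features also differed among the members. The 5′ untranslated region of the representative transcript is 46 bases long in Agt, the member with the lowest ratio, and 199 to 368 bases in the others. The 3′ untranslated region is 1085 bases long in Sparc, the member with the highest ratio, and 230 to 438 bases in the others. The GC content of the coding sequence runs from 50.2% in Sparcl1 to 62.5% in Apoe. With 6 genes no relation was tested.

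The leucine codons shown above were then set beside the ratios, a choice made after the values were seen. Among 12567 shared protein-coding genes, the median log2 ratio was 1.13 in 1553 genes with 0 leucine codons among the first 25, 1.11 in 2633 genes with 2 and 1.07 in 1421 genes with 4. It was 0.92 in 579 genes with 6, 0.87 in 331 with 7 and 0.83 in 84 with 10 or more. Genes share sequence families and libraries, so these medians are a description. Sparc (4 leucine codons), Apoe and Cst3 (6) and Clu (7) lay between the quartiles of genes with their own count, Clu 0.047 above the median of its class. Sparcl1 (6) lay below the lower quartile of its class, 0.75. Agt (2) lay 1.23 below the median of its class.

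**Figure D4:**
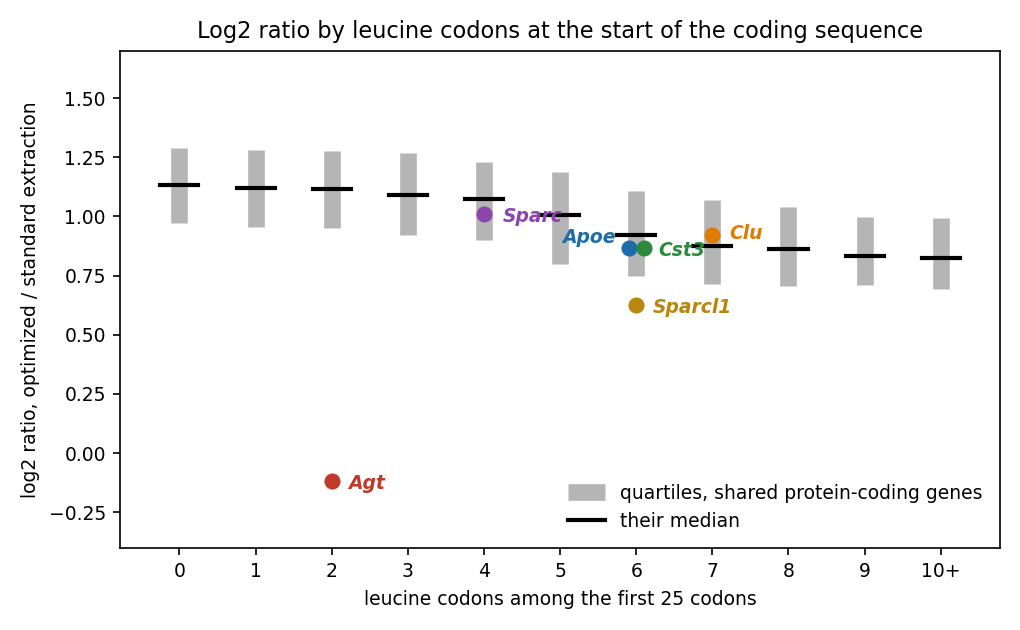
Log2 ratio of optimized over standard extraction by the number of leucine codons among the first 25 codons, with quartiles (grey) and medians (black) of the shared protein-coding genes and the 6 secreted-protein genes in colour. Medians run from 1.13 at 0 leucine codons to 0.83 at 10 or more, and Agt (-0.12) stands apart from genes with 2.

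Of 34 other proteins that cultured astrocytes are known to release, 34 were shared, 32 lay below the median of the shared genes and the list median was 0.75 (quartiles 0.55 and 1.03). Apoe, Clu, Cst3 and Sparc thus lay above the middle of these genes and Sparcl1 below it, and the lowest of the 34, the complement gene C3 at 0.29 in the authors' deposited table, was higher than Agt. Highest was the chemokine gene Ccl2 at 1.23 in the authors' deposited table, followed above the median of the shared genes by the growth factor gene Mdk at 1.17 (chosen after its value was seen). Nearest to a member by ratio were Ccn1 (0.87) and Psap (0.85) for both Apoe and Cst3 in the authors' deposited table, Ccn1 coding for a matricellular protein and Psap for the precursor of the saposins. For Clu they were Ccn1 and the growth factor gene Ptn (0.99), and for Sparc B2m (1.02), of the class I histocompatibility complex, and the protease inhibitor gene Timp3 (1.03), in the authors' deposited table. For Sparcl1 they were Thbs2 (0.63), a thrombospondin gene, and Apod (0.63), a lipocalin gene, and for Agt C3 and the proteoglycan gene Vcan (0.41), in the authors' deposited table. Likeness here means the smallest absolute difference of 1 log2 ratio, which was at most 0.071 for members other than Agt and 0.41 or more for Agt. Of these 34 genes 31 (91.2%) held at least 4 leucine codons among their first 25, as did 5 of the 6 members and 29.2% of shared protein-coding genes. The lowest shares among the 14 lists were 0 of 6 neuron markers, 1 of 12 astrocyte membrane markers and 2 of 12 intracellular markers. The median log2 ratios of these lists were 0.68, 0.76 and 1.04. Whether such starts go with the ratios of the lists was not tested.

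Astrocyte marker genes whose products are not secreted were described in 2 lists. The intracellular list holds cytosolic and filament proteins, the nuclear regulators Id3 and Sox9 and the membrane-bound enzyme Acsl6. Of its genes 12 of 12 were shared, with a median of 1.04, and 8 lay below the median of the shared genes. Without Id3, Sox9 and Acsl6, a choice made after seeing the data, the median of the other 9 was 1.08 and 6 lay below. The transcription regulator gene Id3 was highest at 1.43 and the fatty acid activating enzyme gene Acsl6 lowest at 0.61 in the authors' deposited table. For membrane markers 12 of 13 were shared, with a median of 0.76, and all 12 lay below. The growth factor receptor gene Fgfr3 was highest at 1.02 and the potassium channel gene Kcnj10 lowest at 0.29 in the authors' deposited table. The median of the 6 secreted members was 0.87. Whether these lists differ was not tested.

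**Figure D5:**
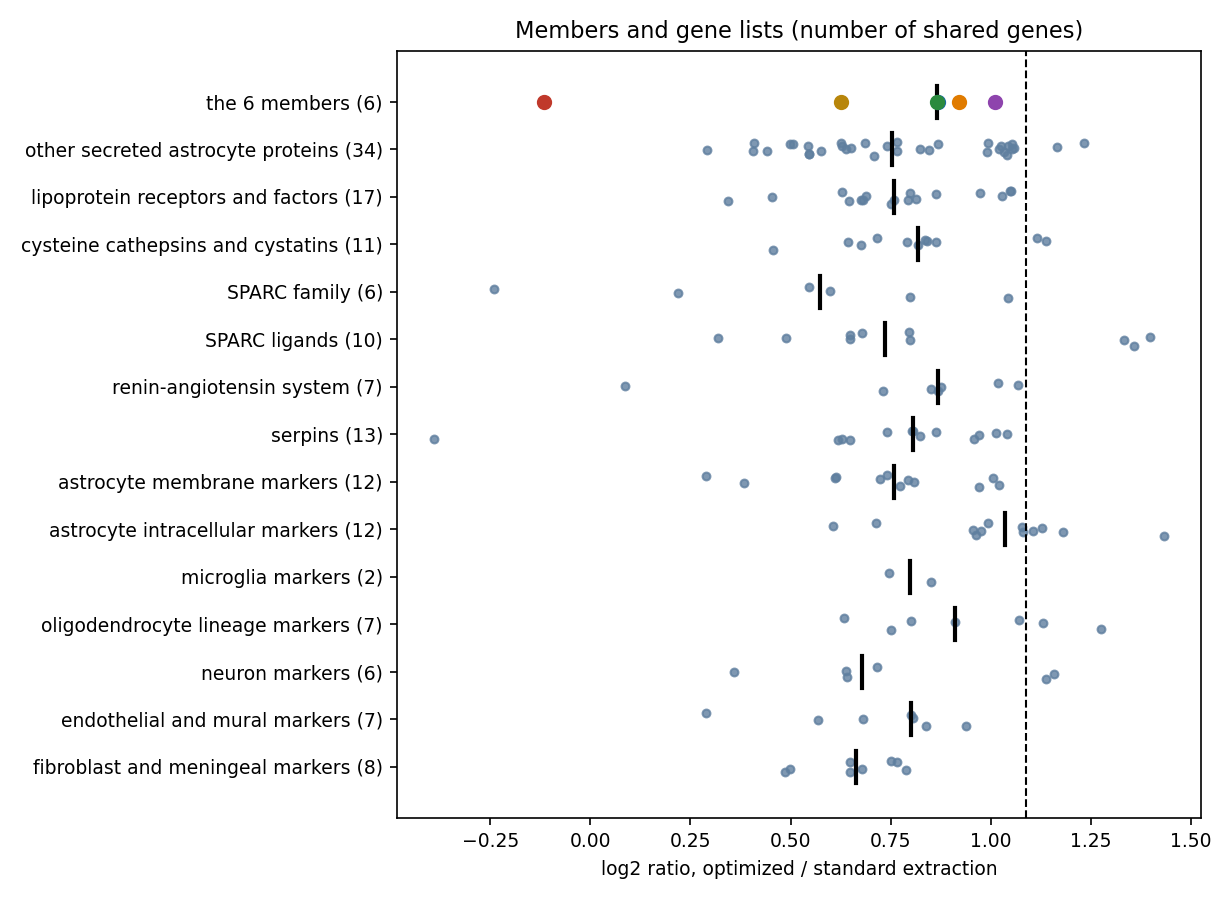
Log2 ratio of optimized over standard extraction of each shared gene (point) in the 6 members and 14 gene lists, with a black bar at each median and a dashed line at the median of all shared genes (1.09). The medians of all 14 lists lie to the left of the dashed line, that of the intracellular astrocyte markers (1.04) closest to it, and Agt (-0.12) lies further left than all list genes other than Spock1 (-0.24) and Serpind1 (-0.39).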

How the data were processed

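RNA of heavy complexes was sequenced in 6 libraries, 3 per extraction, with library preparation by a stranded kit for total RNA, per the labels' protocols. TopHat2, featureCounts and build mm10 are named in the submitters' processing notes. The sources used here do not give versions, strand setting, scaling or model. Values in the authors' deposited tables are log2 ratios of optimized over standard extraction, 1 per gene, per the file headers. Further deposited tables give a biotype and other annotation, with no measured value, for genes of 1 extraction alone.

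The planned test across libraries needs values per library, not analysed here, so the planned fallback, a description with no test, was used. Depth and precision are unknown. Genes were matched by identifier to GENCODE M21, which uses the mm10 assembly (13273 of the 13278 shared genes matched). The representative coding transcript was the best APPRIS class, then the longest coding part. Members were compared with genes within 10% of their coding length. The summaries were tested on simulated data. Named genes were the members, the highest and lowest of each list, all genes of lists with at most 8 shared genes, and the 2 other secreted genes nearest each member. Members and lists were chosen with earlier results of these data known. Alternatives changed the centring, reference, fold threshold, length measure and list summary. Software was pandas 2.3.3 with numpy 2.4.6 in Python 3.11.15, and matplotlib 3.10.9. Some results on single list genes are not reported here.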

Additional observations from a re-analysis of the deposited data

How the results depend on the processing

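In the alternatives run, 6 of 6 members lay below the median of shared protein-coding genes (1.081) and below the mean of all shared genes (1.087). These references nearly equal the median of all shared genes (1.088), and the highest member lay at 1.01, so the count could not change. All 6 also lay below genes of like length with a window of 25%, with whole transcript length, and without genes of the authors' matrix, ER lumen and surface tables. The distances then ranged from 0.46 to 0.077 below for members other than Agt and from 1.21 to 1.16 below for Agt. Leaving out the genes of those authors' tables raised the median of genes of like length for every member, so the count could not change there either. With transcript length Cst3 lay 0.27 in place of 0.39 below. The sign of a ratio depends on the centring, which is arithmetic. Centred on the median of all shared genes, the median of the members was -0.22, with Apoe at -0.22, Clu -0.17, Cst3 -0.22, Sparc -0.076 and Sparcl1 -0.46. Centred on protein-coding genes it was -0.21, with Apoe at -0.21, Clu -0.16, Cst3 -0.21, Sparc -0.069 and Sparcl1 -0.45. The count of 1 member at least 2-fold higher became 5 at 1.5-fold (94.6% of shared genes) and 0 at 4-fold (0.889%), and 0 lay at least 2-fold above the median. All 14 list medians, and all 14 means against the mean of all shared genes, lay below. Some genes, such as Fstl1 and Col1a1, belong to more than 1 list, so the lists are not independent. The list of SPARC ligands had a mean of 0.85 beside a median of 0.74. No paired analysis was possible because the tables hold 1 ratio per gene and no values per batch, and leaving out a batch was not run for the same reason. Depth limits could not be stated.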

Other observations

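Single markers of other cell types that such cultures can hold lay mostly below the median of the shared genes, 1.09. By construction 50.0% of shared genes lie below it. The endothelial cadherin gene Cdh5 was lowest of the vessel markers at 0.29, and the receptor gene Tek highest at 0.94, in the authors' deposited table. Of the fibroblast and meningeal markers, the proteoglycan gene Dcn was lowest at 0.49 and Islr highest at 0.79 in the authors' deposited table. Of 11 oligodendrocyte lineage markers 7 were shared, with a median of 0.91 and 5 below the median of the shared genes. Among these, Pdgfra is also in the fibroblast and meningeal list and Cspg4 also in the vessel list. The myelin gene Mbp was highest at 1.27 in the authors' deposited table. Of 11 neuron markers 6 were shared, with a median of 0.68 and 4 below. The tubulin gene Tubb3 was highest at 1.16 and the neurofilament gene Nefl lowest at 0.36 in the authors' deposited table, and Syn1 and Syp were listed for the standard extraction alone.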
